A study of Drosophila melanogaster with 38 samples.

Results

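The label that remained on chromatin at the end of a 36 h chase was described for all 1883 O-GlcNAc peaks of 1883 in a pulse-chase experiment on larvae of Drosophila melanogaster, comparing wild-type larvae (WT, Oregon R) with larvae that lack OGA (OGA-null, an OGA knockout on the same Oregon R background). Eggs were laid on food with 150 uM of the azide sugar Ac4GalNAz, larvae grew on it for 36 h, and they were then moved to control food with DMSO alone for a chase of 24 or 36 h. Whole larvae were fixed, sonicated chromatin was coupled by a click reaction and purified on streptavidin, and the DNA that came with it was sequenced (O-GlcNAc-seq). The 24 h and 36 h groups of both genotypes had 2 biological replicates each, 8 libraries of the 38 in the series, but the deposited table gives 1 signal value per peak, genotype and time, which combines both replicates. The members were not chosen by their values: every peak with the 4 columns was kept.

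O-GlcNAc is a single sugar that the transferase OGT attaches to proteins of the nucleus and cytoplasm and that the hydrolase OGA takes off again. On fly chromatin the mark is best known from Polycomb repression, where OGT is itself a Polycomb group gene and the Polycomb protein Polyhomeotic is a substrate. An azide sugar given for a limited time marks the proteins modified in that time, and the label then declines as the sugar is removed, as the proteins are degraded or leave the DNA, and as growing tissue dilutes them.

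Values are given as signal per base, which is the deposited signal of a peak divided by its width, and the share left is the 36 h value as a percent of the 24 h value of the same peak and genotype. No source used here says how the authors scaled the columns, and every comparison between times or genotypes rests on that scaling. No test was made, since each group has 1 combined value per peak; spreads below are spreads over peaks, which are not replicates, and fewer labelled nuclei cannot be told apart from less label per nucleus in whole larvae. Larvae that were not fed the azide sugar were not analysed here, so no background level stands beside the residual signal. The values name no genes, so the loss of OGA was taken from the labels, and positions are those of the dm3 build without gene annotation.

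At the median peak, WT chromatin lost most of its remaining label between 24 and 36 h, whereas OGA-null chromatin kept more than it lost. In WT the median signal per base was 1.02 at 24 h (5th to 95th percentile over peaks 0.507 to 1.72) and 0.169 at 36 h (0.0280 to 0.427). In OGA-null larvae it was 2.79 at 24 h (1.55 to 4.73) and 1.55 at 36 h (0.919 to 2.46). Every one of the 1883 peaks was higher in OGA-null than in WT larvae at 36 h (100% of peaks), and the lowest OGA-null peak, at 0.516 per base, lay above the WT 95th percentile. The OGA-null signal at 36 h was also above the WT signal of 12 h earlier in 1650 peaks (87.6%), with a median ratio of 1.55.

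**Figure D1:**
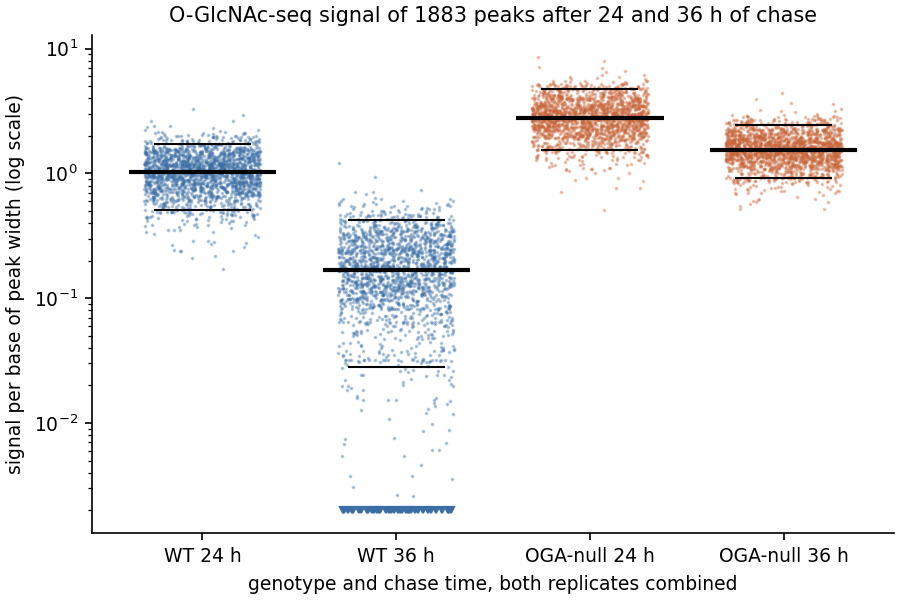
Signal per base of peak width (log scale) for each of the 1883 peaks at 24 and 36 h of chase in WT and OGA-null larvae, 1 dot per peak with random sideways spread; thick lines are medians, thin lines the 5th and 95th percentiles over peaks, and triangles at the bottom the 35 peaks listed at 0. The WT 36 h column is the lowest and the widest, with a median of 0.169, and the OGA-null 36 h column lies between 0.516 and 4.37.

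The ratio of OGA-null to WT signal widened from a median of 2.76 at 24 h to 9.14 at 36 h, the latter over the 1848 peaks that were above 0 in WT (5th to 95th percentile 3.14 to 48.0). At 36 h the ratio was at least 4 in 1631 of these peaks (88.3%), at least 20 in 334 (18.1%) and under 2 in 16 (0.866%). High ratios arise where the WT value is close to 0. No ratio was formed for the 35 peaks listed at 0 in WT, of which none was at 0 in OGA-null larvae.

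The share left at 36 h had a median of 16.4% in WT (5th to 95th percentile 2.55 to 50.2%) and 55.0% in OGA-null larvae (35.6 to 92.4%). It was larger in OGA-null larvae in 1814 peaks (96.3%), and the median ratio of the shares was 3.28 where WT was above 0. Of the 0 h signal, 0.497% was left in WT and 6.79% in OGA-null larvae.

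**Figure D2:**
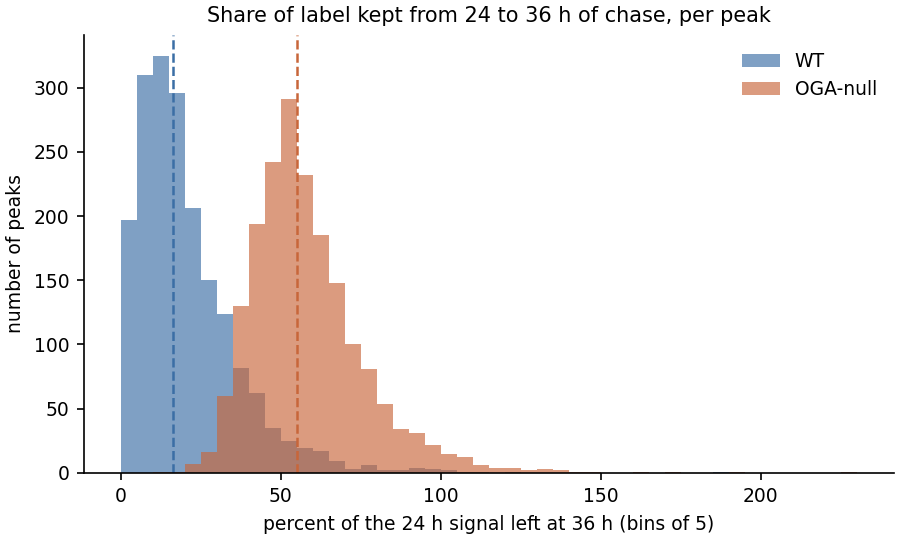
Number of peaks (vertical axis) by the percent of the 24 h signal left at 36 h (horizontal axis, bins of 5 percentage points) in WT and OGA-null larvae; dashed lines mark the medians of 16.4% and 55.0%. The WT 75th percentile of 27.6% lies below the OGA-null 5th percentile of 35.6%, and the tails overlap.

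The genotypes differed far more in the last interval than in the one before it. From 20 to 24 h the median peak kept 38.1% of its signal in WT larvae and 40.3% without OGA. Expressed per hour, the median log2 loss in WT was 0.200 from 16 to 20 h, 0.348 from 20 to 24 h and 0.217 from 24 to 36 h. In OGA-null larvae it was 0.189, 0.327 and 0.0719 over the same intervals. The rate in OGA-null larvae over the last 12 h was thus the lowest of the 6 values, while the WT rate was close to that of 16 to 20 h. Taken as an exponential decline between the 2 columns, the last interval corresponds to an apparent half-life of 4.60 h in WT and 13.9 h in OGA-null larvae. A change in the authors' factor for 1 column would move all peaks of an interval together, and its part in these rates was not tested.

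Peaks that kept most of their 24 h signal were common in OGA-null larvae and fewer in WT. At least 50% of the 24 h signal was left in 1232 peaks (65.4%) of OGA-null larvae and in 96 peaks (5.1%) of WT. The WT count was 35 or 259 with 1 of the 2 parts of the WT 36 h column alone, multiplied by 2. These parts are described below with the reads behind that column. Measured from 20 h in place of 24 h, 3 of the 1883 peaks in OGA-null larvae and 6 in WT kept at least 50%. The order of the counts turned, but they are too few to describe the genotypes. The median signal per base went from 2.68 at 20 h to 0.169 at 36 h in WT and from 6.95 to 1.55 in OGA-null larvae. Counts at this line are also sensitive to its place, since the nearest peaks on either side had 50.02 and 49.97% left in OGA-null larvae and 50.1 and 49.85% in WT. At least 25% was left in 1874 peaks (99.5%) of OGA-null larvae and in 549 peaks (29.2%) of WT. At least 75% was left in 276 peaks (14.7%) of OGA-null larvae and in 23 peaks (1.22%) of WT. Under 25% was left in 9 peaks (0.478%) and in 1334 peaks (70.8%), respectively. Both genotypes kept at least 50% in 72 peaks (3.82%), where the product of the 2 shares of peaks would give 62.8. The share left in WT said little about the share left in OGA-null larvae at the same peak, with Spearman's rho of 0.0893 over peaks.

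A few peaks were listed at or above their 24 h value, 54 in OGA-null larvae (2.87%) and 6 in WT (0.319%). They were narrow and low at 24 h. The 54 peaks had a median width of 20 bp, and 28 of them were at 20 bp, the minimum width in the list. Of all 1883 peaks, 679 were at 20 bp, and the median width was 35 bp. Their OGA-null signal per base was 1.46 at 24 h, where the other peaks had 2.82, but 1.61 at 36 h, where the others had 1.54. The 96 WT peaks with at least 50% left also had a median width of 20 bp and a low 24 h value, 0.608 against 1.04 per base. The 24 h value stands in the denominator of the share, so a low 24 h value and a high share are not independent measures. In OGA-null larvae these 96 peaks had 61.1% left against 54.6% in the other peaks, but their OGA-null 24 h signal was lower too, 2.41 against 2.82 per base.

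The WT 36 h values were built from few reads. All 1883 values of the column could be written in exactly 1 way as whole multiples of a step of 0.0305 plus whole multiples of a step of 0.0786, within 1.2e-06 of signal, and after a fixed offset no value could. A column that averages or sums 2 libraries, each scaled by its own factor, has this form. The multiples were read as bases covered by reads, where a read that spans a 20 bp peak covers 21 counted positions. Among the 679 peaks of 20 bp the multiple was a whole number of 21s above 0 in 163 peaks for the smaller step. For the larger step it was in 204, where 1 in 21 would be 32.3. The search for the steps took common differences between values of these same peaks as 21 steps, so this pile-up is no independent support for the reading. These parts are called the smaller-step and the larger-step library below. Which replicate each is remains unknown, and the reading was chosen after seeing the data. Other pairs of steps also gave 1 solution per peak, so the smaller-step values depend on the pair taken.

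**Figure D3:**
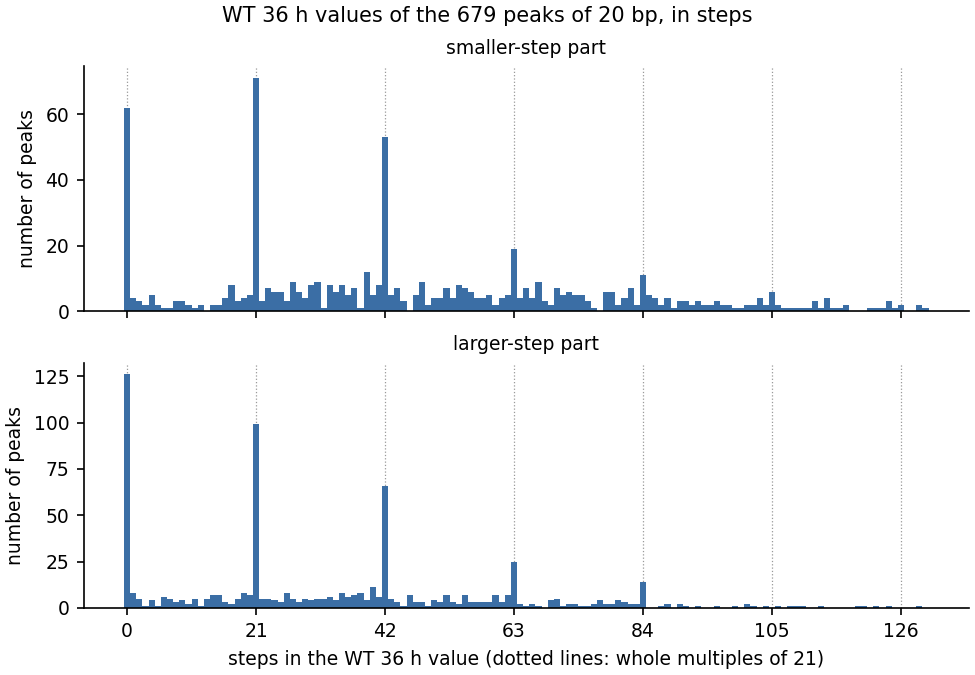
Number of 20 bp peaks (vertical axis) by the number of steps in the WT 36 h value (horizontal axis, up to 130 steps, with 14 and 4 peaks beyond it), for the smaller-step part above and the larger-step part below; dotted lines mark whole multiples of 21. Both parts pile up on the dotted lines, at 163 and 204 of the 679 peaks above 0.

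On this reading the median peak was covered by 1.96 reads per base in the smaller-step library and by 1.24 in the larger-step library. Their sum had a median of 3.29 reads (5th to 95th percentile 0.633 to 7.85). It was under 1 read in 137 peaks and at least 10 reads in 26 peaks. The smaller-step library was at 0 in 119 peaks (6.32%) and the larger-step library in 235 (12.5%), and 35 peaks were at 0 in both. A peak listed at 0 therefore stands for no read in either library at this depth, not for the absence of label.

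These libraries give the only view of replicate spread among the 4 columns. The column was taken as their mean, which no source used here states, so each part was multiplied by 2. On that scale their median signals per base were 0.123 and 0.202. The median shares left, against the combined 24 h value, were 11.8 and 20.2%, and the comparisons below use the same scale. The difference between genotypes was larger than this spread. OGA-null 36 h signal exceeded the smaller-step library in all 1883 peaks and the larger-step library in 1881, and its median was 12.6 and 7.66 times theirs. Likewise the WT 24 h signal exceeded the 2 libraries in 1880 and 1851 peaks. The order of single peaks was much less stable: Spearman's rho of the 2 read depths over peaks was 0.259, and the 188 highest peaks of each had 39 in common (20.7% of each list), where 9.98% of all peaks are in each list.

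The residual in OGA-null larvae followed the earlier signal, and the residual in WT hardly did. Over the 1883 peaks, Spearman's rho of the OGA-null 36 h signal per base was 0.603 with 24 h, 0.529 with 20 h, 0.614 with 16 h and 0.456 with 0 h of the same genotype. It was also 0.581 with WT at 16 h, 0.352 with WT at 24 h and 0.447 with WT at 0 h. The WT 36 h signal had a rho of 0.0746 with WT at 24 h, -0.108 with WT at 0 h and -0.0754 with OGA-null at 36 h. The WT 24 h column was intermediate, with 0.262 against 20 h and 0.268 against 0 h. Given the few reads behind the WT 36 h column, these weak values are no finding about label. All peaks share a library within a column, and peaks that lie close together may share fragments, which was not tested.

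**Figure D4:**
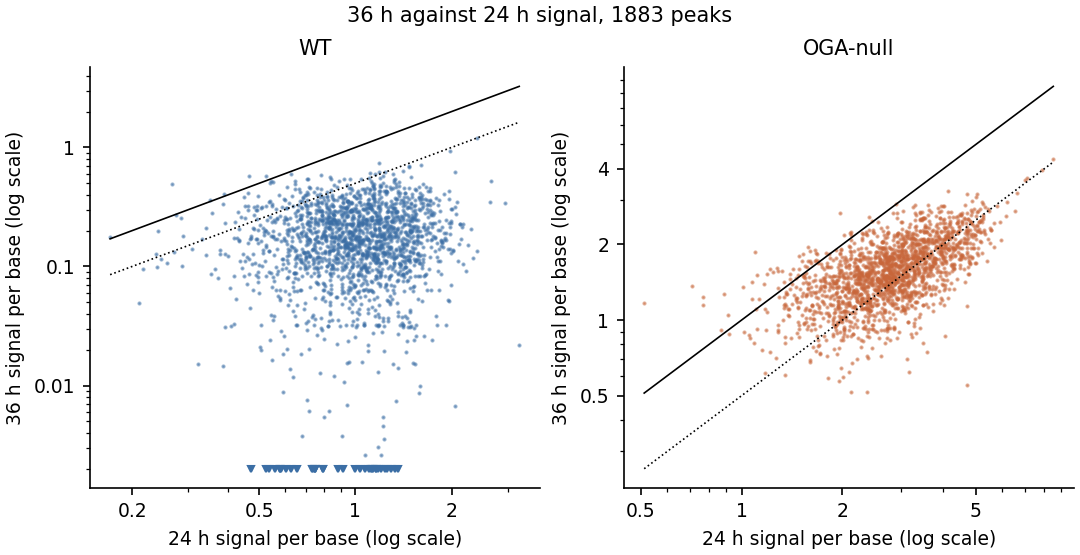
Signal per base at 36 h (vertical axis, log scale) against 24 h (horizontal axis, log scale) for each of the 1883 peaks, WT on the left and OGA-null on the right, with different axis ranges; the solid line marks equal values, the dotted line 50% left, and triangles the 35 WT peaks listed at 0. OGA-null peaks form a band along the dotted line (rho 0.603), and WT peaks form a cloud below it (rho 0.0746).

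Overlaps of the highest peaks are read against 9.98%, the share of all peaks that such a list of 188 holds. Of the 188 OGA-null peaks with the highest 36 h signal per base, 87 (46.3% of each list) were among the 188 highest at 24 h and 71 (37.8%) among the 188 highest at 0 h. In WT the corresponding overlaps were 27 (14.4%) and 5 (2.66%), and the highest 188 of the 2 genotypes at 36 h had 21 in common (11.2%). The WT overlap with 24 h and the overlap between genotypes lie near the share of all peaks.

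The spread between peaks narrowed in OGA-null larvae over the last interval. The SD of the log2 signal per base over peaks was 0.49 at 24 h and 0.43 at 36 h, and the ratio of the 95th to the 5th percentile fell from 3.06 to 2.68. In WT the same ratio was 3.39 at 24 h and 15.2 at 36 h. The share left differed little by 0 h signal in OGA-null larvae. In 5 groups of about equal size by OGA-null 0 h signal, from the lowest to the highest, the share left was 56.1, 57.5, 55.5, 52.4 and 53.4%, while the 36 h signal per base went from 1.34 to 1.96 at the ends. In WT the share was lower in each successive group by WT 0 h signal, from 20.8% through 18.6, 17.5 and 15.0% to 12.8%. The WT 36 h signal per base fell with it, from 0.189 in the lowest to 0.154 in the highest group. Read depth along the WT groups was 2.00, 2.00, 2.00, 1.82 and 1.63 in the smaller-step library. In the larger-step library it was 1.36, 1.47, 1.25, 1.05 and 1.28, so the decline was not regular there. Peak width rises along these groups, from a median of 20 to 92 bp in the WT ones. Grouped in the same way by 24 h signal, the OGA-null share was 73.6, 59.4, 55.0, 51.2 and 46.6%, and the WT share fell from 27.7% in the lowest to 11.1% in the highest group. The 36 h signal per base was 1.25 in the lowest and 2.03 in the highest group in OGA-null larvae, and 0.158 and 0.179 in WT. The 24 h column both forms these groups and is the denominator of the share, and how much of the gradient comes from that was not tested.

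The peaks with the highest residual in OGA-null larvae were among the strongest at 24 h. The highest lay on 2L at 13211944 to 13212007 (64 bp), with 8.52 per base at 24 h and 4.37 at 36 h in OGA-null larvae. In WT this peak went from 3.26, the highest WT value at 24 h, to 0.0219, which corresponds to 0.708 reads in the smaller-step library and 0 in the other. The next were on 3R at 19653639 to 19653696 (7.90 to 3.95 per base in OGA-null, 2.34 to 0.119 in WT) and on 2L at 12461212 to 12461403 (7.11 to 3.69 in OGA-null, 2.00 to 0.302 in WT). The fourth, on 3R at 19685187 to 19685462, went from 7.01 to 3.62 in OGA-null and from 2.41 to 0.134 in WT larvae. These 4 kept between 49.9 and 52.0% in OGA-null larvae, a little under the median of all peaks. The next, on 2L at 17428161 to 17428289, went from 4.13 to 3.27 in OGA-null larvae, a share of 79.1%.

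The highest WT residual was on a heterochromatin sequence. The peak on 2RHet at 2165443 to 2165518 (76 bp) went from 2.41 to 1.21 per base in WT, with 11.6 and 10.7 reads in the 2 libraries, the most of any peak in each. In OGA-null larvae it went from 6.62 to 3.22, so both genotypes kept close to 50% there, at 50.2 and 48.6%. The second and the fourth were on 3RHet at 2225687 to 2225706 (0.936 per base at 36 h in WT, 47.3% left) and on 3LHet at 1906759 to 1906838 (0.710 per base, 44.2% left). The others in the top 5 were on 3R at 26640511 to 26640549 (0.739 per base, 62.2% left) and on 3L at 3383645 to 3383664 (0.705 per base, 47.9% left). Each of these 5 had at least 4 reads in both libraries.

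Among the 301 peaks of at least 100 bp, where a value rests on more bases, the OGA-null share ran from 30.9 to 100.6%. The highest were on 3L at 15097488 to 15097610 (1.46 per base at 24 h, 1.47 at 36 h, 100.6% left), on 2R at 8063377 to 8063497 (93.5%) and on 2R at 13300752 to 13300885 (93.1%), followed by 2R at 10096064 to 10096171 (89.8%) and 2L at 4950126 to 4950235 (86.0%). Of these 5, 4 had an OGA-null 24 h signal under 2 per base, and the one at 10096064 had 3.03. The lowest were on 2L at 12546358 to 12546473 (3.42 to 1.06 per base, 30.9% left), X at 8868191 to 8868296 (31.1%), 3L at 14267366 to 14267478 (32.3%), 3R at 296916 to 297042 (32.5%) and 3L at 199222 to 199342 (34.1%). All 5 had an OGA-null 24 h signal from 2.85 to 4.97, above the median of all peaks.

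The highest WT share among the peaks of at least 100 bp was 56.5%, on 3R at 11887654 to 11887776 (0.713 to 0.403 per base), where the libraries had 7.24 and 2.27 reads. The other 4 of the highest 5 kept 40.9 to 46.7% in WT, on 3R at 22701045, on 2L at 544397 and 12543259, and on 2R at 7092557. The same 5 peaks kept 42.0 to 78.3% in OGA-null larvae.

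The 5 widest peaks were alike. The widest, on 3L at 9369687 to 9370243 (557 bp, overlapping an OGA peak), went from 1.15 to 0.125 per base in WT and from 3.79 to 2.09 in OGA-null larvae. Across the 5, on 3L, X, 3L, 3R and 2L, the share left was 9.58 to 11.5% in WT and 50.2 to 62.6% in OGA-null larvae, and the ratio of OGA-null to WT at 36 h was 12.1 to 16.7.

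The 35 peaks listed at 0 in WT at 36 h (1.86%) were near the median in OGA-null larvae at that time. Their OGA-null signal per base was 1.52 at 36 h, with 54.7% left, against 1.55 and 55.0% in the other peaks. At 24 h they were higher than the other peaks in OGA-null larvae, 3.28 against 2.79 per base. In WT they were lower at 24 h, 0.882 against 1.02. They had a median width of 27 bp, and 15 of them were at 20 bp, which is 2.21% of the peaks of that width and near the 1.86% of all peaks. By sequence, 14 lay on 2R (3.53% of its 397 peaks), 8 on 3L (1.96% of 408), 6 on 3R (1.24% of 482), 4 on 2L (1.07% of 373) and 3 on X (2.13% of 141). Of the 35, 4 had another such peak within 1 kb, and no expected count was formed. Over all 1883 peaks, 223 pairs of successive peaks lay under 300 bp apart and 125 pairs lay 300 to 1000 bp apart. The widest was a 207 bp peak on X at 11698214 to 11698420, which had 0.789 per base in WT at 24 h and went from 1.91 to 1.29 in OGA-null larvae. The next was on 2L at 15264632 to 15264731 (100 bp), which went from 3.81 to 2.23 in OGA-null larvae.

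Width moved with the WT share and not with the OGA-null share. In peaks of 20 bp, 21 to 50 bp, 51 to 100 bp and over 100 bp (679, 452, 457 and 295 peaks), the WT share left was 18.8, 18.3, 15.2 and 12.2%. In OGA-null larvae it was 55.5, 57.0, 53.8 and 54.1%. The ratio of OGA-null to WT at 36 h accordingly went from 7.59 in the narrowest to 13.1 in the widest class. Read depth in WT at 36 h was 2.00, 2.00, 1.84 and 1.63 in the smaller-step library but 1.29, 1.34, 1.11 and 1.24 in the larger-step library, so that the decline with width was not regular in the latter. Of the 96 WT peaks with at least 50% left, 50 were at 20 bp (7.36% of the peaks of that width). A single one, 1, was over 100 bp wide (0.339% of that class), where 5.1% of all peaks kept at least 50%. Spearman's rho with width was -0.119 for the WT 36 h and 0.161 for the WT 24 h signal per base, and 0.275 and 0.290 for the OGA-null ones.

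Chromosome arms hardly differed in OGA-null larvae. The share left was 55.1 to 55.2% on each of 2L, 2R, 3L and 3R (373, 397, 408 and 482 peaks) and 55.9% on X (141 peaks). In WT it was 16.3% on 2L, 15.5% on 2R, 19.6% on 3L, 15.7% on 3R and 14.4% on X. In bins of 2 Mb, the 4 bins in the first 8 Mb of 3L had 19.6 to 23.3% left. The bin from 4 to 6 Mb, with 116 peaks, was the highest of the 37 bins with at least 20 peaks. Some bins elsewhere lay in the same range. They had 22.1% left on 2R from 0 to 2 Mb and 20.3% on 2L from 12 to 14 Mb. Over all 37 bins the share ran from 10.3 to 23.3% in WT and from 50.2 to 60.3% in OGA-null larvae. The read depths of the 2 WT 36 h libraries had a Spearman's rho of 0.570 over the 37 bins, which compares depths and not shares. The WT and OGA-null shares had a rho of 0.0595 over the same bins. Chromosome 4 held 1 peak.

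The 81 peaks on heterochromatin sequences had the most residual signal in WT. Their WT 36 h signal per base was 0.281 against 0.167 on the autosomal arms (1660 peaks), with read depths of 3.05 against 1.96 in the smaller-step and 2.10 against 1.22 in the larger-step library. None was at 0. Their 24 h signal was also higher, 1.24 against 1.02, and the share left was 21.1% against 16.4%. In OGA-null larvae they were higher at both times, 3.61 against 2.78 at 24 h and 1.80 against 1.54 at 36 h, but the share left was 51.3% against 55.2%. The share of the 0 h signal that remained was 0.828% on heterochromatin and 0.491% on the arms in WT, and 7.94 and 6.78% without OGA. Heterochromatin is rich in repeats, and no source used here says how the authors counted reads that match several places; the part of such reads in these values was not tested. The peak with the highest OGA-null residual among them was the 2RHet peak above, followed by XHet at 179843 to 179884 (5.03 to 3.19 per base in OGA-null, 1.63 to 0.344 in WT). On X the highest OGA-null residual was at 1527921 to 1527941 (3.29 to 2.87 per base in OGA-null, 1.54 to 0.250 in WT).

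**Figure D5:**
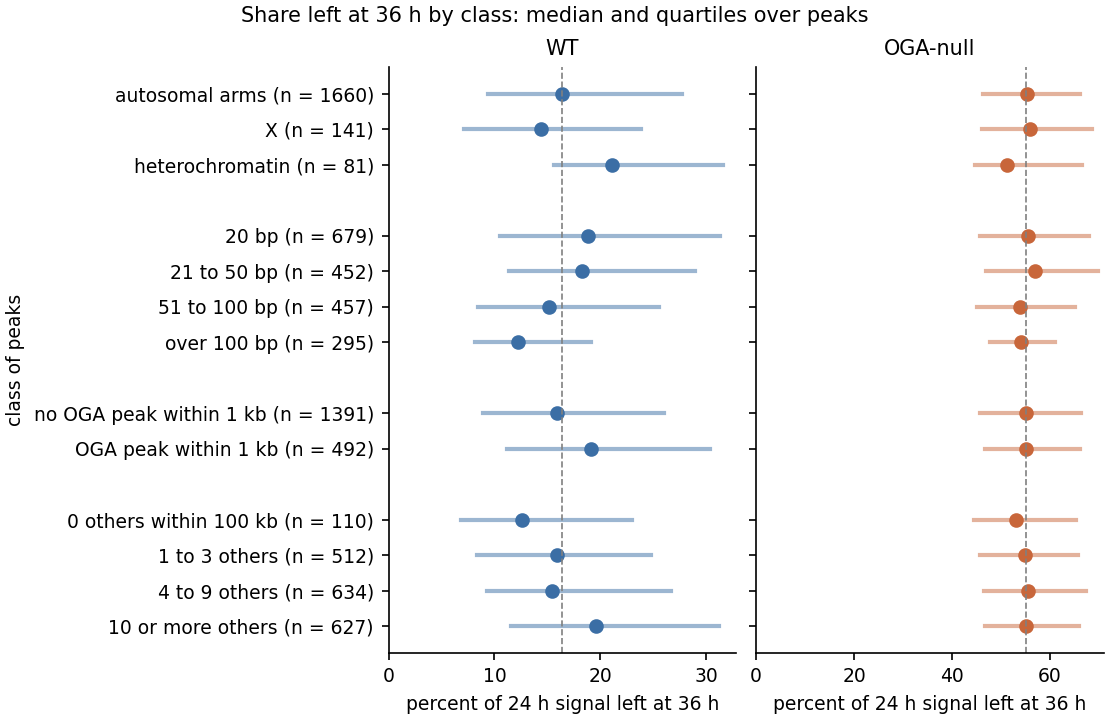
Percent of the 24 h signal left at 36 h (horizontal axis) for classes of peaks by sequence, width, distance to an OGA peak and number of other O-GlcNAc peaks within 100 kb (vertical axis, n peaks in each), WT on the left and OGA-null on the right with different axis ranges; dots are medians, bars run from the 25th to the 75th percentile over peaks, and dashed lines mark the medians of all peaks. WT medians run from 12.2 to 21.1% and OGA-null medians from 51.3 to 57.0%.

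Peaks near OGA binding had a slightly larger share of signal left in WT. With so few reads and no unfed larvae beside them, label and background cannot be told apart in this difference. The 492 peaks with a peak of the OGA ChIP-seq list within 1 kb (1 list for 1 library of each genotype) had 19.1% left in WT and the other 1391 had 15.9%. Their 24 h signals were alike, 1.02 per base in both, and read depth at 36 h was 2.31 against 1.82 in the smaller-step and 1.48 against 1.15 in the larger-step library. In OGA-null larvae the shares were 55.1 and 55.0%. Peaks that overlapped an OGA peak, 81 in number, had 19.2% left in WT and 53.0% in OGA-null larvae.

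Crowding of O-GlcNAc peaks moved with the WT residual in the same way. With 0, 1 to 3, 4 to 9 and 10 or more other peaks within 100 kb (110, 512, 634 and 627 peaks), the WT share left was 12.6, 15.9, 15.4 and 19.6%, and in OGA-null larvae 53.0, 54.8, 55.6 and 55.1%. The WT 24 h signal did not follow the classes, at 1.02, 1.03, 1.01 and 1.03 per base. OGA peaks and crowding occur together, but within the most crowded class the 184 peaks with OGA within 1 kb had 20.3% left in WT and the 443 without had 19.4%, and with 1 to 3 others the values were 18.5% (101 peaks) and 14.8% (411 peaks). The crowding classes were chosen after seeing the data. The 2 WT libraries differed in level over all peaks (11.8 and 20.2%), which does not measure the spread of a difference between classes of peaks. For OGA within 1 kb over no OGA within 1 kb, the log2 ratio of the median WT shares was 0.270 in the column. It was 0.273 in the smaller-step and 0.248 in the larger-step library. Within each library, read depth rose along the crowding classes, through 1.63, 1.71, 1.82 and 2.32 reads per base in the smaller-step and 1.00, 1.09, 1.22 and 1.51 in the larger-step library.

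Neighbouring peaks resembled each other most at very short range. For the 223 pairs of successive peaks under 300 bp apart, Spearman's rho between the 36 h signals per base was 0.406 in WT and 0.442 in OGA-null larvae. For the 125 pairs 300 to 1000 bp apart it was 0.0438 and 0.290, and for the 514 pairs 1000 to 10000 bp apart 0.152 and 0.0493. The 523 pairs over 50000 bp apart had 0.182 in WT and -0.0436 in OGA-null larvae, so the WT value did not keep falling with distance. The share left had a rho of 0.366 in WT and 0.133 in OGA-null larvae under 300 bp. Whether peaks this close were counted from the same fragments was not tested.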

How the data were processed

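The authors' deposited O-GlcNAc-seq table lists 1883 peaks and 16 signal columns (8 chase times in each genotype), and each column merges replicates 1 and 2, per the file headers. Builds dm3 and sacCer3 and the tools bedtools 2.17.0 and SAMtools are named, with no role, in the submitters' processing notes. Sources used here do not give the aligner, peak caller, column scaling or depth per library. The OGA list of 3534 intervals has no scores and served only for distances.

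Signal per base is signal divided by width, end minus start. In 20 bp peaks the values were taken to count 21 positions. Groups were taken from the labels. Python 3.11.15 with pandas 2.3.3, numpy 2.4.6 and scipy 1.17.1 computed medians, percentiles, counts and Spearman's rho over peaks, as descriptions without p-values. Fits per library were planned but not run, because the columns combine replicates. For the WT 36 h column the 2 steps were found by search, from common differences between values of 20 bp peaks, each taken as 21 steps. Reads per base are steps divided by positions. The column was taken as the mean of both libraries, so each part was multiplied by 2 to give signal. Other step pairs (the larger step less 1 or 2 smaller ones) also gave 1 solution per peak. They gave 112 and 123 whole multiples of 21 for the smaller-step part in place of 163, and 204 for the larger-step part each time. The search itself used this pile-up, so these counts do not decide between the pairs, and the smaller-step values depend on the pair taken. The same search on the WT 24 h, OGA-null 24 h and OGA-null 36 h columns gave no unique solution, so those were not split. The split was tested on simulated data. With the simulated steps some peaks had more than 1 solution and none a wrong one. The shares were simulated as a known share of the OGA-null 24 h column with noise and without a floor of few reads. Their recovery was thus fixed in advance and gives no support to the shares.

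Named peaks are the 5 highest by OGA-null and by WT 36 h signal per base, among peaks of at least 100 bp the 5 highest and 5 lowest OGA-null and 5 highest WT shares, the 5 widest, the 5 widest at 0 in WT, and the 3 highest by OGA-null 36 h signal on heterochromatin and on X; not all are printed. Peaks, classes and rules were chosen with earlier results of these data known. Positions are 1-based. Alternatives covered filters, widths, sequences, a pseudocount of 0.1 per base, totals, merging within 500 bp, thresholds, reference times and OGA distances.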

Additional observations from a re-analysis of the deposited data

How the results depend on the processing

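Of 82 alternative values for 18 results, 46 stayed within the 95% binomial interval of the median, 1.5 times a count or 0.1 of a rho or log2 ratio, 31 moved further and 5 changed sign. The WT share of 16.4% became 15.5% without the lowest 25% of peaks, 15.6% without 20 bp peaks, 15.8% from totals and 24.4% with 0.1 per base added; the OGA-null share became 56.5% with 0.1 added. The ratio of 9.14 became 10.12, 10.2, 9.81 and 6.14 under the same 4 settings. Using 1 WT 36 h library alone, chosen after seeing the data, gave WT shares of 11.8% (smaller step) and 20.2% (larger step), ratios of 12.3 and 6.57, 119 and 235 peaks at 0 in place of 35, and 35 and 259 WT peaks with at least 50% left in place of 96. These shares, ratios and counts at 50% take the column as the mean of both libraries. Without 20 bp peaks, 20 were at 0, and 46 WT and 802 OGA-null peaks kept at least 50%. That WT count was 193 at 40%, 52 at 60%, 60 without the lowest 25% and 6 against 20 h; the OGA-null count of 1232 was 709 at 60% and 3 against 20 h.

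The log2 ratio of heterochromatin to arms in WT, 0.37, was 0.50 without 20 bp peaks, 0.75 against 0 h and 0.53 in the larger-step library; X to arms, -0.18, was -0.34 in the smaller-step library. In OGA-null larvae, heterochromatin to arms went from -0.11 to 0.23 against 0 h, so its direction depends on the reference time. Other OGA-null differences, near 0 in the main setting, also changed sign. X to arms went from 0.019 to -0.0094 without 20 bp peaks, -0.098 against 0 h and -0.0092 from totals. OGA within 1 kb went from 0.0040 to -0.058 for overlap. The rho of WT neighbours under 300 bp, 0.406, was 0.268 in the larger-step library. Apart from the library settings, the causes were not tested. No paired analysis was possible because each column combines both replicates; fits per library, leaving out replicates and the replicate block were not run. Depth per library is unknown outside the WT 36 h column, where a median of 3.29 reads limits any statement on a single peak.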
